A study of Mus musculus with 15 samples.

Results

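Wnt4, Wnt5a, Wnt5b and Wnt11 are the secreted ligands, and Ror1, Ror2 and Ryk the cell-surface receptors, most closely tied to noncanonical Wnt signalling. These 7 genes were taken by name, and each was read from the brightest of the probe sets (groups of array probes for 1 transcript) that carry its symbol alone. All 7 were measured, among 19938 genes named on the array. RNA came from gonadal white adipose tissue, the fat pad along the epididymis, of male C57BL6/J mice, with 1 Affymetrix array for each mouse. The wild-type group held 7 mice, and the knockout group held 8 mice with the Sfrp5 KO allele Q27Stop, which puts a stop codon in place of a glutamine codon near the start of the coding sequence. Both groups had been given a high-fat diet for 8 weeks from the age of 4 weeks and were killed at 12 weeks. The labels name no tissue-specific driver for the allele, and no lean or chow-fed group was analysed here. Each array was of a separate mouse, the wild-type arrays come first in the deposited order and the knockout arrays after them, and array order and genotype cannot be told apart. Values are on the log2 scale after RMA, the usual background correction, normalization and probe summary of such arrays, so a difference of 1 is a doubling of signal.

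Wnt ligands are lipid-modified glycoproteins that bind Frizzled receptors. In the canonical branch they stabilise beta-catenin, whereas in the noncanonical branch Ror1, Ror2 or Ryk act as co-receptors and the signal runs through dishevelled to small GTPases and the kinase JNK, or to intracellular calcium. In fat, Wnt5a is known as a ligand of inflamed tissue. Sfrp5 is a secreted decoy with a Frizzled-like domain, and it was proposed to hold Wnt5a away from its receptors. Whether these ligands and receptors change when the decoy is lost is the question the comparison addresses.

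The labels were checked on the targeted gene and on the tissue. Sfrp5 signal lay between 7.66 and 8.33 in wild-type arrays and between 6.02 and 7.12 in knockout arrays, so the groups did not overlap, as for 0.217% of all 35557 probe sets. The difference, knockout minus wild type, was -1.23 (SE 0.16; limma adjusted p = 0.0200), and an exact two-sided permutation test over the 6435 splits gave p = 0.000155, the smallest it can give. Where the Sfrp5 probes lie relative to the stop codon was not analysed here. Leaving out wild-type replicate 2, 3, 4 or 5 or knockout replicate 2, 5 or 8 took limma's adjusted p past 0.05, with the difference between -1.29 and -1.13 over all 15 such fits. Adipocyte genes were among the brightest, with Adipoq, the adipocyte hormone adiponectin, at the 99.7th percentile of named genes. Epididymis and testis genes, 9 of which were measured and 8 of which had the higher mean in the knockout, stood apart on 2 arrays. Their mean was 11.1 in the second knockout mouse and 7.28 in the fourth wild-type mouse, while no other array exceeded 6.71. Each of the 7 genes is therefore also given without this pair, called the arrays with epididymal signal below. The other arrays were not uniform in this mean, and leaving out the pair does not remove their differences. It was 6.71, 6.58 and 6.27 in knockout replicates 6, 5 and 3 and 6.31 in wild-type replicate 7, and the lowest was 5.63 in knockout replicate 7. Array medians lay between 6.99 and 7.07, and the number of arrays limits the precision.

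The sequence just before the transcription start is shown for Wnt4, Ror1, Ror2 and Wnt5b, since the highest correlations between the 7 genes from mouse to mouse, given further on, involve them. Each is the 250 bases before a RefSeq start on GRCm38.p6, written 5′ to 3′ on the strand of the gene. Capitals mark 2 motifs on either strand, the AP-1 motif TGANTCA, bound by Jun and its partners at the end of the JNK cascade, and the GC box GGGCGG, bound by Sp-family factors. The Wnt4 window is chr4:137277385-137277634 on the plus strand, Ror1 chr4:100095541-100095790 on the plus strand, Ror2 chr13:53286125-53286374 on the minus strand, and Wnt5b, at the farthest upstream of its 3 listed starts, chr6:119544348-119544597 on the minus strand.
Wnt4: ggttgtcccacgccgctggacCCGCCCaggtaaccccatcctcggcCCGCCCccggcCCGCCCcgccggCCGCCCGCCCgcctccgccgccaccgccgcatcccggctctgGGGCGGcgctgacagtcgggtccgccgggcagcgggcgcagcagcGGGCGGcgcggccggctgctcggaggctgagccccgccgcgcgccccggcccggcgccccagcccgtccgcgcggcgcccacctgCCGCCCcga
Ror1: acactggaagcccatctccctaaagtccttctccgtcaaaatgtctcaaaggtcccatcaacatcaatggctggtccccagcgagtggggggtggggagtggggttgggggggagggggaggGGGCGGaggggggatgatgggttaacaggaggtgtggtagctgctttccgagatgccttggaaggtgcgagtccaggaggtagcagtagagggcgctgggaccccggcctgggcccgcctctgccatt
Ror2: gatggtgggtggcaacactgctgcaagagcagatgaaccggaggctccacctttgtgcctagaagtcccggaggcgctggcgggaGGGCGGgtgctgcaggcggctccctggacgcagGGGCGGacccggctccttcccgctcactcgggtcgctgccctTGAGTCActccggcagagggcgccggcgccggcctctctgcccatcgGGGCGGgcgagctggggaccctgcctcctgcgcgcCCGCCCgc
Wnt5b: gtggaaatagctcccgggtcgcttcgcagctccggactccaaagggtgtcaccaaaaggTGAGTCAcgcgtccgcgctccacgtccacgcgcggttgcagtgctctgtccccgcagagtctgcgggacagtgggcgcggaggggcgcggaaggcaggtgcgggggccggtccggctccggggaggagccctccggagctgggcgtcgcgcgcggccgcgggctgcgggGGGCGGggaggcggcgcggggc

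These windows are rich in G and C, at 85.2% for Wnt4, 62.4% for Ror1, 73.2% for Ror2 and 75.2% for Wnt5b, where the median of the 32851 windows of this length is 52.4%. Wnt4 held 8 GC box matches, with overlapping matches counted, Ror2 held 4, and Ror1 and Wnt5b held 1 each, and 32.7% of all windows had at least 1. An AP-1 match began at position -90 in Ror2 and at -191 in Wnt5b, counted from the start site, and 6.75% of all windows held one. Over all 6 of the 7 genes with a window, 9 windows in total, 2 held the AP-1 motif, 7 the GC box, and 4 the TCF/LEF motif of the canonical branch (CTTTGA or CTTTGT, not in capitals), which 27.6% of all windows held. By their letters an AP-1 and a GC box match cannot overlap, whereas a TCF/LEF match can share its last letters with an AP-1 match, and none of these windows holds such a pair. A match says only that the letters are there.

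None of the 7 genes passed limma's threshold (Benjamini-Hochberg adjusted p below 0.05 over all probe sets), against 0.0337% of all probe sets, or 12 of 35557. None had an unadjusted p below 0.05 either, against 9.97% of all probe sets and 6.69% of named genes read in the same way, by their brightest probe set. In all 7 the ranges of the genotypes overlapped. The median difference of the 7 was 0.06, with 6 of 7 above 0, and that of all named genes was -0.01, with 44.8% above 0. Every 95% confidence interval given here is limma's, and it refers to a change in probe set signal. Whether these signals rose above background could not be assessed, so the intervals do not bound the change in transcript.

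**Figure D1:**
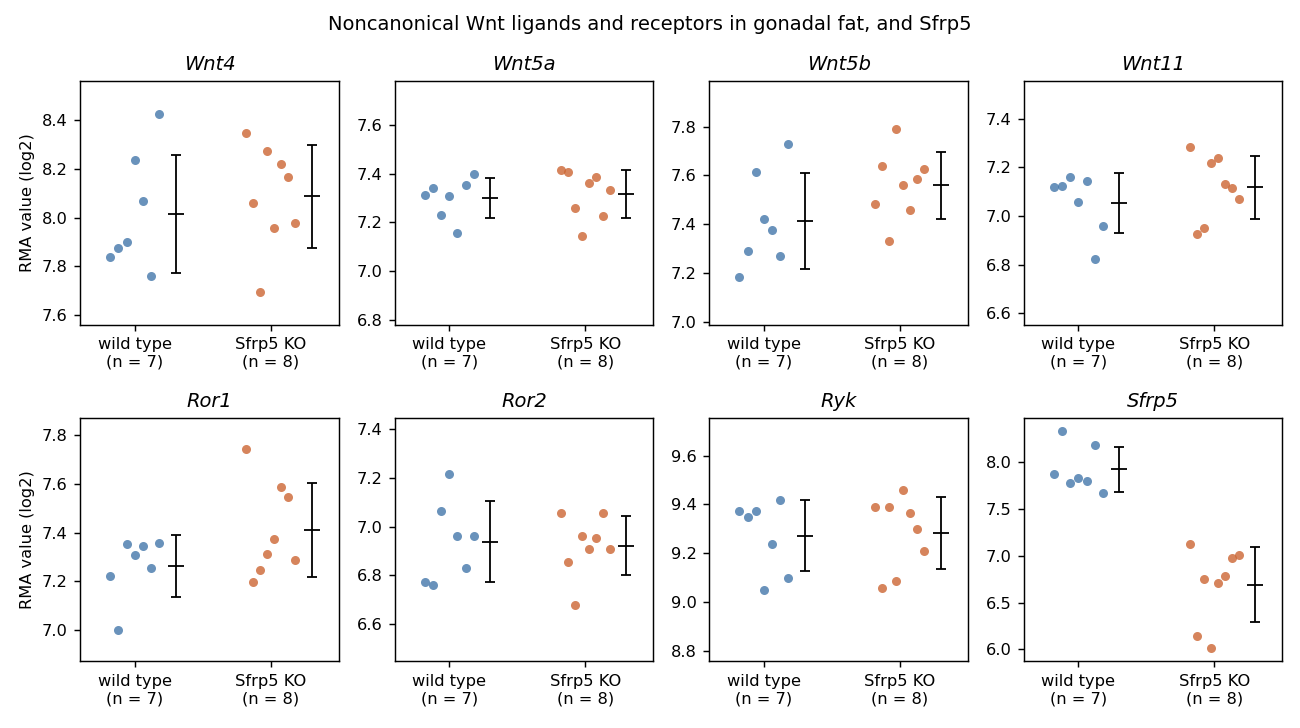
RMA value (log2) of each array for the 7 ligand and receptor genes and Sfrp5, with 1 point for each mouse in order of replicate number and, beside each group, the mean and SD (7 wild-type and 8 knockout mice). Each panel has its own level axis, and the groups overlap in all panels but that of Sfrp5.

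Wnt5a, the ligand proposed as the partner of Sfrp5, gave close to equal signal in the genotypes. Its signal in wild-type arrays ran from 7.16 through a median of 7.31 to 7.40, and in knockout arrays from 7.14 through a median of 7.35 to 7.42. The knockout range held the wild-type range, with 5 of 8 knockout arrays above the wild-type mean. The difference was 0.02 (SE 0.06), with an interval of -0.10 to 0.14 (limma adjusted p = 0.949). That interval corresponds to between 0.933-fold and 1.10-fold of the wild-type signal. Wnt5a also varied least of the 7 from mouse to mouse, with an SD within genotype of 0.091, at the 6.11th percentile of named genes, where the median gene had 0.16. Of the 7 intervals, that of Wnt5a was the narrowest. Its difference was 0.0063 without the arrays with epididymal signal, and between -0.0060 and 0.043 when single arrays were left out, so its sign is not settled.

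Wnt5b, the close relative of Wnt5a, had higher values in the knockout without passing the test. Wild-type arrays ran from 7.18 through 7.38 to 7.73, and knockout arrays from 7.33 through 7.57 to 7.79. The upper ends were alike, and wild-type replicates 1, 2 and 6, at 7.18, 7.29 and 7.27, lay below every knockout array. The difference was 0.15 (SE 0.09), with 7 of 8 knockout arrays above the wild-type mean and an interval from -0.04 to 0.33, or 0.974-fold to 1.26-fold (limma adjusted p = 0.630). When single arrays were left out it lay between 0.11 and 0.20, the upper end being the fit without wild-type replicate 7, with limma's unadjusted p = 0.0249 and adjusted p = 0.435. Without the arrays with epididymal signal it was 0.14.

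Wnt4, a ligand known for its part in gonad and kidney development, spread widely among the mice. Wild-type arrays ran from 7.76 through 7.90 to 8.43, and knockout arrays from 7.70 through 8.11 to 8.35. Wild-type replicate 7 was the highest and knockout replicate 3 the lowest of all, so the genotypes spanned nearly the same range. The difference was 0.07 (SE 0.11), with an interval of -0.17 to 0.31, or 0.892-fold to 1.24-fold (limma adjusted p = 0.889). The second probe set of Wnt4 was dimmer, with a mean of 6.42 against 8.05, and its difference had the other sign, -0.08 (SE 0.09; limma adjusted p = 0.847). The mean of both probe sets differed by -0.0037 (limma adjusted p = 0.995), so these arrays give no direction for Wnt4. Which transcripts each probe set reads was not analysed here. For the brighter probe set the difference was 0.11 without the arrays with epididymal signal, and between 0.03 and 0.14 when single arrays were left out.

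Wnt11, a ligand of cell movement in the embryo, ran from 6.82 through 7.12 to 7.16 in wild-type arrays and from 6.93 through 7.12 to 7.28 in knockout arrays. The medians were equal to 2 decimals, and wild-type replicate 6 was the lowest of all. The difference was 0.06 (SE 0.07), with an interval of -0.09 to 0.21, or 0.943-fold to 1.16-fold (limma adjusted p = 0.840). It was 0.09 without the arrays with epididymal signal, and between 0.02 and 0.09 when single arrays were left out, the lower end being the fit without wild-type replicate 6.

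Ror1 and Ror2 are receptor tyrosine kinase-like proteins that bind Wnt5a through a cysteine-rich domain. Ror1 ran from 7.001 through 7.31 to 7.36 in wild-type arrays and from 7.20 through 7.34 to 7.74 in knockout arrays. Knockout replicates 1, 5, 6 and 7, at 7.74, 7.37, 7.59 and 7.55, lay above every wild-type array, and wild-type replicate 2, at 7.001, lay below all others. The difference was 0.15 (SE 0.09), with an interval of -0.03 to 0.33, or 0.977-fold to 1.26-fold (limma adjusted p = 0.617). When single arrays were left out it lay between 0.10, without knockout replicate 1, and 0.18, without knockout replicate 2. It was 0.19 without the arrays with epididymal signal (limma adjusted p = 0.630), and 0.18 with arrays weighted by their quality (limma's unadjusted p = 0.0492, adjusted p = 0.449).

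Ror2 showed no such lean. Its values ran from 6.76 through 6.96 to 7.21 in wild-type arrays and from 6.68 through 6.93 to 7.05 in knockout arrays. Both extremes belonged to single arrays, knockout replicate 3 at the low end and wild-type replicate 4 at the high end. The difference was -0.02 (SE 0.08), with an interval of -0.18 to 0.15, or 0.885-fold to 1.11-fold (limma adjusted p = 0.970). Without wild-type replicate 4 and knockout replicate 2, the arrays with epididymal signal, it was 0.04 (limma adjusted p = 0.935), and it lay between -0.04 and 0.03 when single arrays were left out, so the sign rests on the arrays included.

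Ryk, a receptor with an inactive kinase domain that binds Wnt through a domain like that of Wnt inhibitory factor, gave the brightest of the 7 probe sets, at the 85.5th percentile of named genes, where the others lay between the 42.7th and the 67.7th. A percentile here describes the probes, whose brightness also depends on their sequence, and no level is set against that of another gene. Wild-type arrays ran from 9.05 through 9.35 to 9.42 and knockout arrays from 9.06 through 9.33 to 9.46. Wild-type replicates 4 and 7, at 9.05 and 9.10, and knockout replicates 2 and 4, at 9.06 and 9.09, lay below the rest, which were at 9.21 or higher. The difference was 0.01 (SE 0.08), with an interval of -0.15 to 0.18, or 0.899-fold to 1.13-fold (limma adjusted p = 0.977), and quantile normalization of the deposited values turned its sign, to -0.0025. It was 0.0074 without the arrays with epididymal signal, and between -0.02 and 0.04 when single arrays were left out.

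**Figure D2:**
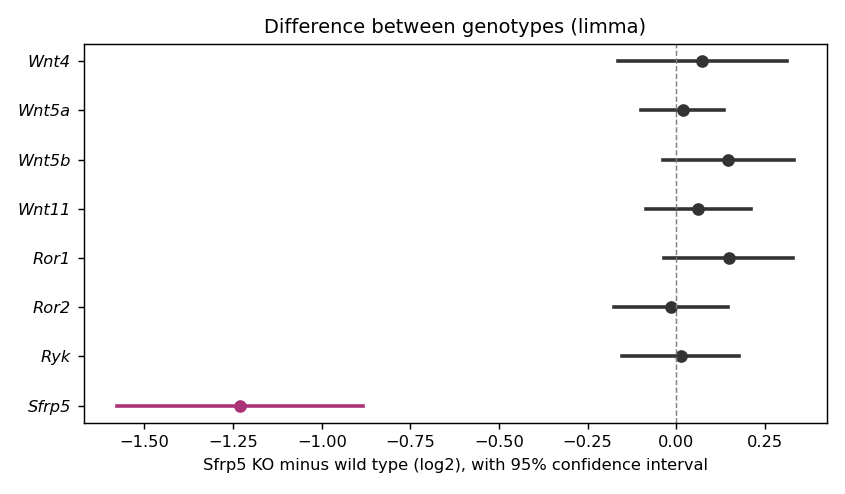
Difference between genotypes, knockout minus wild type (log2), for the 7 genes and Sfrp5, with limma's 95% confidence interval as a line. The intervals of all 7 genes cross 0, the widest being that of Wnt4 (-0.17 to 0.31) and the narrowest that of Wnt5a (-0.10 to 0.14), and that of Sfrp5 lies below -0.88.

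The rest of the pathway was read from a list of 72 genes in 8 roles, of which 70 were measured. None of the 70 passed limma's adjusted threshold in either direction, 35 were higher and 35 lower, and the median difference was -0.0005. An unadjusted p below 0.05 was found for 4 of the 70, against 6.69% of named genes. These 4 were Cdc42, Jun, Plcb4 and Fzd8, described with their roles. Of 23 alternatives that p was no longer below 0.05 in 1 for Cdc42, 15 for Jun, 10 for Plcb4 and 13 for Fzd8.

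Genes that lipidate and release Wnt ligands differed little. Porcn, the acyltransferase that attaches the lipid, differed by 0.01 (SE 0.07), Wls, the carrier that brings the ligand to the cell surface, by 0.01 (SE 0.07), and Notum, which removes the lipid, by -0.06 (SE 0.11). Wls was lower instead, by up to -0.02, with quantile normalization, median centring, array weights or both arrays with epididymal signal left out.

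Of the 10 Frizzled receptors 3 were higher and 7 lower, with a median of -0.03. Fzd8 differed by -0.14 (SE 0.07; limma adjusted p = 0.497), Fzd5 by -0.15 (SE 0.08) and Fzd3 by -0.15 (SE 0.09). Fzd2 and Fzd7, receptors that work with Ror proteins on Wnt5a, differed by -0.02 (SE 0.10) and 0.08 (SE 0.06). Of 9 further genes, secreted or surface binders of Wnt ligands and the ubiquitin ligases Siah1a and Siah2, 6 were higher. Siah2 differed by 0.12 (SE 0.09), the glypican Gpc4 by -0.07 (SE 0.06) and the secreted inhibitor Wif1 by -0.09 (SE 0.09).

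Within the cell, dishevelled passes the signal on and the formins Daam1 and Daam2 link it to the actin skeleton. Of these 5 adaptors 1 was higher. Daam2 differed by -0.17 (SE 0.09; limma adjusted p = 0.557), with 1 of 8 knockout arrays above the wild-type mean, Daam1 by -0.05 (SE 0.07), Dvl1 by -0.02 (SE 0.08) and Dvl2 by 0.01 (SE 0.07). In the list named planar polarity core, proteins that help to give a sheet of cells its orientation, 10 of 13 were higher with a median of 0.06. Prickle3 differed by 0.11 (SE 0.06; limma adjusted p = 0.630), Intu by 0.11 (SE 0.08), Vangl2, a partner of Ror2, by 0.11 (SE 0.09) and Prickle2 by -0.13 (SE 0.11).

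All 4 measured small GTPases and kinases they activate were higher, although Rhoa (0.02) and Rock1 (0.05) turned to -0.04 and -0.0023 with quantile normalization. Cdc42, a GTPase of cell polarity, had 8 of 8 knockout arrays above the wild-type mean, at 12.14 ± 0.093 (SD, n = 8) against 12.00 ± 0.057 (SD, n = 7). That was a difference of 0.14 (SE 0.05), and it did not pass (limma adjusted p = 0.334). With quantile normalization it was 0.07 (limma's unadjusted p = 0.121). In the JNK branch 5 of 8 were higher. Jun, the transcription factor that JNK activates, differed by 0.15 (SE 0.07; limma adjusted p = 0.490), while the kinases Mapk8 and Mapk9, JNK1 and JNK2, differed by -0.08 (SE 0.06) and -0.09 (SE 0.08).

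The calcium branch held 4 higher and 14 lower genes of 18, with a median of -0.04. Plcb4, a phospholipase that starts calcium release, differed by -0.14 (SE 0.06; limma adjusted p = 0.476) and Nlk, a kinase that opposes canonical Wnt transcription, by -0.11 (SE 0.05; limma adjusted p = 0.510). For both genes 0 of 8 knockout arrays lay above the wild-type mean. Prkca, a calcium-dependent kinase, differed by -0.13 (SE 0.10), and Nfatc1, a transcription factor switched on by calcineurin, by -0.05 (SE 0.07).

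**Figure D3:**
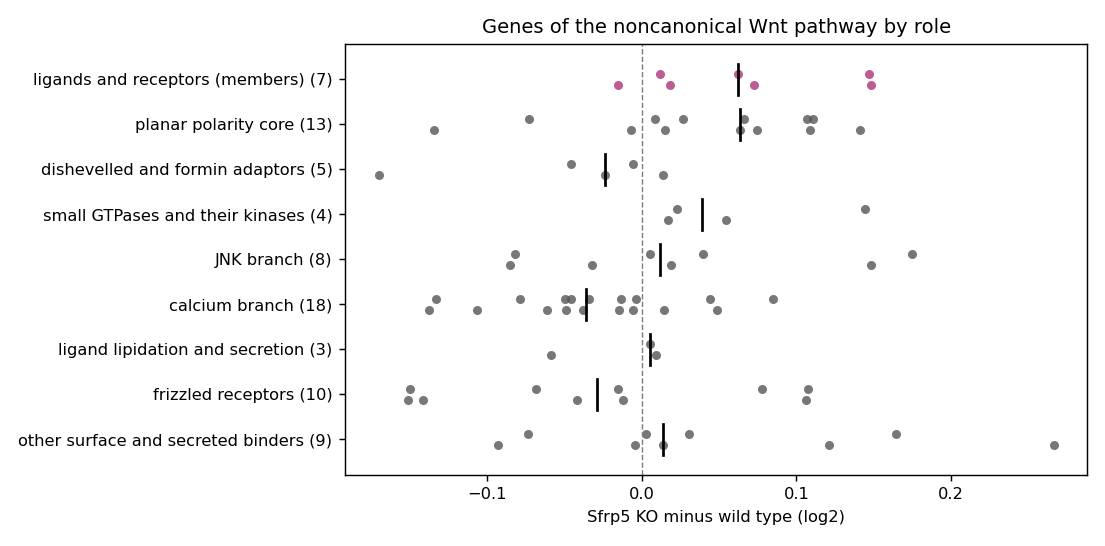
Difference between genotypes (log2, knockout minus wild type) of the 7 ligand and receptor genes (top row) and of 70 other genes of the pathway by role, with 1 point for each gene, the number of genes in parentheses and a black bar at the median. The points of every role lie within -0.17 and 0.27, and the medians between -0.04 and 0.06. The row of other surface and secreted binders also holds the ubiquitin ligases Siah1a and Siah2.

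The 7 genes were then compared with each other across the mice, after each genotype's mean was removed. Here and in all correlations below Wnt4 stands for its brighter probe set alone, and correlations of the dimmer one were not computed. Of 21 pairs none had a Pearson r past the threshold after adjustment, and 2 passed by rank. Wnt4 and Ror2 had r = 0.71 (permutation p = 0.00608, adjusted p = 0.0638) and Spearman's ρ = 0.80 (permutation p = 0.00059, adjusted p = 0.0124), and r = 0.73 without the 2 arrays farthest from the median of Wnt4. Within the genotypes r was 0.58 in wild type (exact permutation p = 0.177) and 0.89 in the knockout (exact permutation p = 0.00454). Ror1 and Ror2 had r = 0.66 (permutation p = 0.00532, adjusted p = 0.0638) and ρ = 0.74 (permutation p = 0.00219, adjusted p = 0.0230), with r = 0.57 without the 2 farthest arrays, 0.66 in wild type (exact permutation p = 0.0978) and 0.74 in the knockout (exact permutation p = 0.031).

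The most negative r values were those of Ryk, and none passed after adjustment. With Wnt5b it had r = -0.61 (permutation p = 0.0195, adjusted p = 0.113; ρ = -0.60, permutation p = 0.0211, adjusted p = 0.0920), and -0.41 without the 2 farthest arrays. With Wnt4 it had r = -0.57 (permutation p = 0.035, adjusted p = 0.124; ρ = -0.53, permutation p = 0.0498, adjusted p = 0.157), and -0.47 without them, with -0.94 in wild type (exact permutation p = 0.00516) and -0.21 in the knockout (exact permutation p = 0.618), a contrast between genotypes that was not tested. Wnt4 and Wnt5b had r = 0.60 (permutation p = 0.0269, adjusted p = 0.113; ρ = 0.61, permutation p = 0.0219, adjusted p = 0.0920), which was 0.27 without the 2 farthest arrays and so rests on them. Wnt4 and Ror1 had r = 0.58 (permutation p = 0.0252, adjusted p = 0.113; ρ = 0.60, permutation p = 0.0193, adjusted p = 0.0920), and 0.54 without 2 arrays. No pair of Wnt5a passed, with r between -0.28 and 0.12 over its 6 pairs.

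The shape of the arrays moved with some of these genes, and its part in the pairs was not tested beyond one value. The interquartile range of all probe sets lay between 2.47 and 2.67 log2 units, and over 7 relations it had r = -0.76 with Ror2 (permutation p = 0.00219, adjusted p = 0.0137; ρ = -0.71, permutation p = 0.00606), -0.73 with Wnt4 (permutation p = 0.00392, adjusted p = 0.0137; ρ = -0.67, permutation p = 0.0122) and -0.70 with Wnt5b (permutation p = 0.00882, adjusted p = 0.0206; ρ = -0.75, permutation p = 0.00274). Without the 2 farthest arrays these were -0.69, -0.58 and -0.59. Ryk had r = 0.58 (permutation p = 0.0310, adjusted p = 0.0542; ρ = 0.45, permutation p = 0.0948), and Wnt5a 0.08 (permutation p = 0.787). With quantile normalization, which makes the shapes equal, Wnt4 and Ror2 had r = 0.63 (permutation adjusted p = 0.192) and Ror1 and Ror2 had r = 0.67 (permutation adjusted p = 0.0899).

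Each gene was also set against 12 lists of cell type markers, 84 relations in all. In whole tissue, fewer cells of a type and less RNA in each cell cannot be told apart. Ryk and the adipocyte list (Adipoq, Plin1, Lep, Fabp4, Cidec, Lipe and Pparg) gave the single relation past the threshold, with r = 0.86 (permutation p = 0.00037, adjusted p = 0.0311) and ρ = 0.78 (permutation p = 0.0015, adjusted p = 0.0630). It was 0.80 without the 2 farthest arrays, 0.89 in wild type (exact permutation p = 0.00774) and 0.84 in the knockout (exact permutation p = 0.0118). The adipocyte list mean ran from 11.47 to 11.85 over the wild-type arrays and from 11.55 to 11.85 over the knockout arrays, with 4 of 7 genes higher in the knockout. The r stayed between 0.83 and 0.93 in the 15 computations without 1 array, where the adjusted permutation p passed the threshold in 4, and it was 0.83 (adjusted permutation p = 0.144) without both arrays with epididymal signal. With quantile normalization it was 0.84 (permutation p = 0.00077, adjusted p = 0.0517) and no longer passed. Ryk also had r = 0.58 with the interquartile range of the arrays, and the part of array shape in its relation to this list was not tested further.

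The relations that follow did not pass after adjustment, and the part of array shape in them was not tested. Wnt5b and the adipocyte list had r = -0.73 (permutation p = 0.00377, adjusted p = 0.0751; ρ = -0.66, permutation p = 0.0112, adjusted p = 0.234), and -0.61 without the 2 farthest arrays. Wnt4 and the adipocyte list had r = -0.63 (permutation p = 0.0178, adjusted p = 0.213; ρ = -0.60, permutation p = 0.0275, adjusted p = 0.372), and -0.58 without the 2 farthest arrays. Within the genotypes that was -0.98 in wild type (exact permutation p = 0.000198) and -0.27 in the knockout (exact permutation p = 0.520), a contrast that was not tested. Wnt4 and the mesothelial list, genes of the cell sheet that covers visceral fat, had r = 0.72 (permutation p = 0.00447, adjusted p = 0.0751; ρ = 0.79, permutation p = 0.00143, adjusted p = 0.0630), and 0.74 without the 2 farthest arrays. All 10 genes of that list were higher in the knockout, none past limma's threshold, and the list mean lay between 7.40 and 8.75 over wild-type arrays and between 8.03 and 8.83 over knockout arrays. The part of that list in the values of Wnt4 was not tested. Wnt11 and the skeletal muscle list had r = 0.74 (permutation p = 0.00195, adjusted p = 0.0751; ρ = 0.77, permutation p = 0.00293, adjusted p = 0.0820), and 0.65 without the 2 farthest arrays. The muscle list mean lay between 6.76 and 6.93 over wild-type arrays and between 6.72 and 7.10 over knockout arrays, with 6 of 8 genes higher in the knockout, and its part in the values of Wnt11 was not tested. The median level of the muscle genes was at the 45th percentile of named genes, and whether they or Wnt11 rose above background could not be assessed. Ryk and the endothelial list had r = 0.71 (permutation p = 0.00403, adjusted p = 0.0751; ρ = 0.53, permutation p = 0.0485, adjusted p = 0.407), which was 0.44 without the 2 farthest arrays and so rests on them. Ror2 and the nerve and Schwann list had r = 0.69 (permutation p = 0.00862, adjusted p = 0.121; ρ = 0.56, permutation p = 0.0345, adjusted p = 0.372), and 0.56 without the 2 farthest arrays.

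Wnt5a had no r beyond 0.40 in size with any of the 12 lists. With the macrophage list it had r = 0.09 (permutation p = 0.776, adjusted p = 0.968), although the mean of that list was 9.42 in the eighth knockout mouse and 8.92 in the second wild-type mouse, each the highest of its genotype. With the progenitor and fibroblast list it had r = 0.02 (permutation p = 0.965, adjusted p = 0.976), and with the adipocyte list 0.15 (permutation p = 0.606, adjusted p = 0.943), which was 0.70 without the 2 farthest arrays. Ror1 and Ror2 had r = 0.38 and 0.16 with the progenitor and fibroblast list, neither past the threshold (permutation adjusted p = 0.750 and 0.943).

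**Figure D4:**
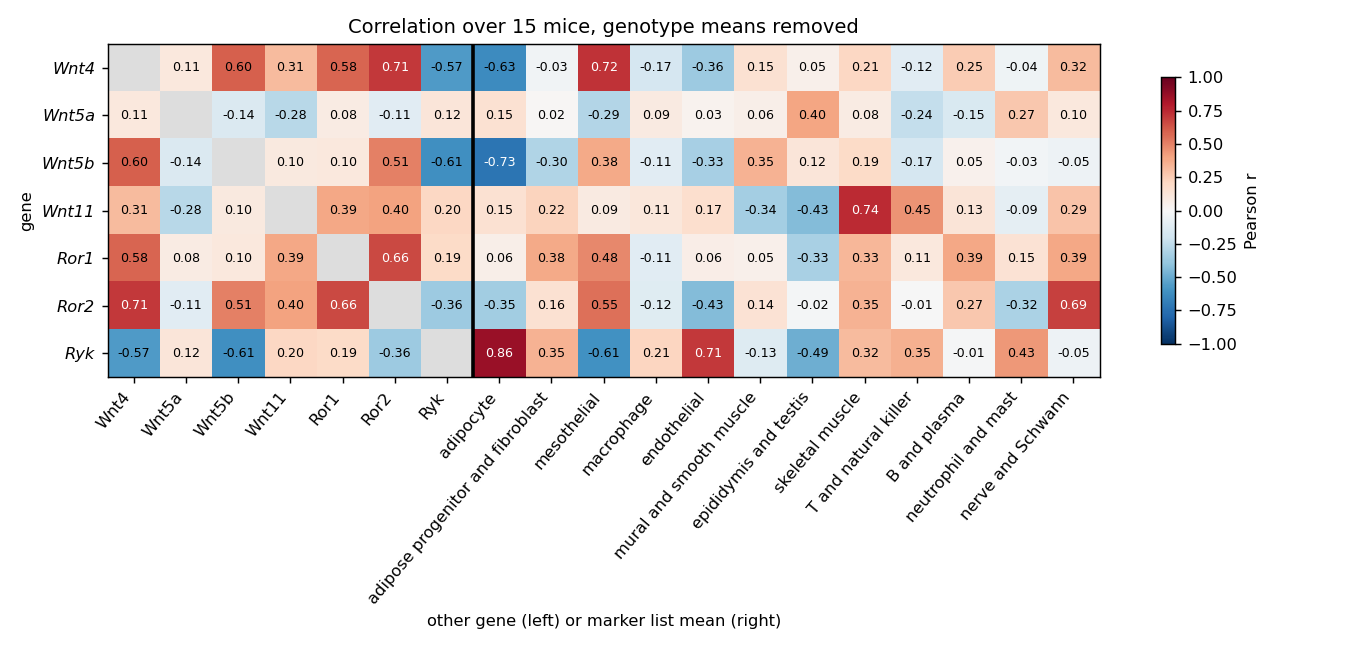
Pearson r over 15 mice, with each genotype's mean removed, of the 7 genes (rows) with each other (left of the black line) and with the mean of 12 lists of cell type markers (right), from -1 (blue) to 1 (red). The row of Wnt5a is pale throughout, and the darkest cell is Ryk with the adipocyte list (0.86).

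Sfrp5 separates the genotypes, so its relation to the 7 genes was computed within each, 14 relations in all, and none passed after adjustment. Wnt5a had r = 0.27 with Sfrp5 in wild type (exact permutation p = 0.581, adjusted p = 0.682; ρ = 0.18, exact permutation p = 0.713; n = 7) and 0.34 in the knockout (exact permutation p = 0.403, adjusted p = 0.626; ρ = 0.33, exact permutation p = 0.428; n = 8). Without the 2 farthest arrays these were -0.39 and 0.15. When single arrays were left out, r lay between 0.16 and 0.71 in wild type and between -0.28 and 0.70 in the knockout. In each genotype the sign thus rests on the arrays included. The strongest of the 14 was that of Ror1 in wild type, with r = -0.87 (exact permutation p = 0.0113, adjusted p = 0.158) and ρ = -0.96 (exact permutation p = 0.00278), and -0.78 without the 2 farthest arrays. In the knockout the same relation had r = 0.61 (exact permutation p = 0.108, adjusted p = 0.302; ρ = 0.55, exact permutation p = 0.171), and 0.52 without 2 arrays, and the difference between the genotypes was not tested.

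**Figure D5:**
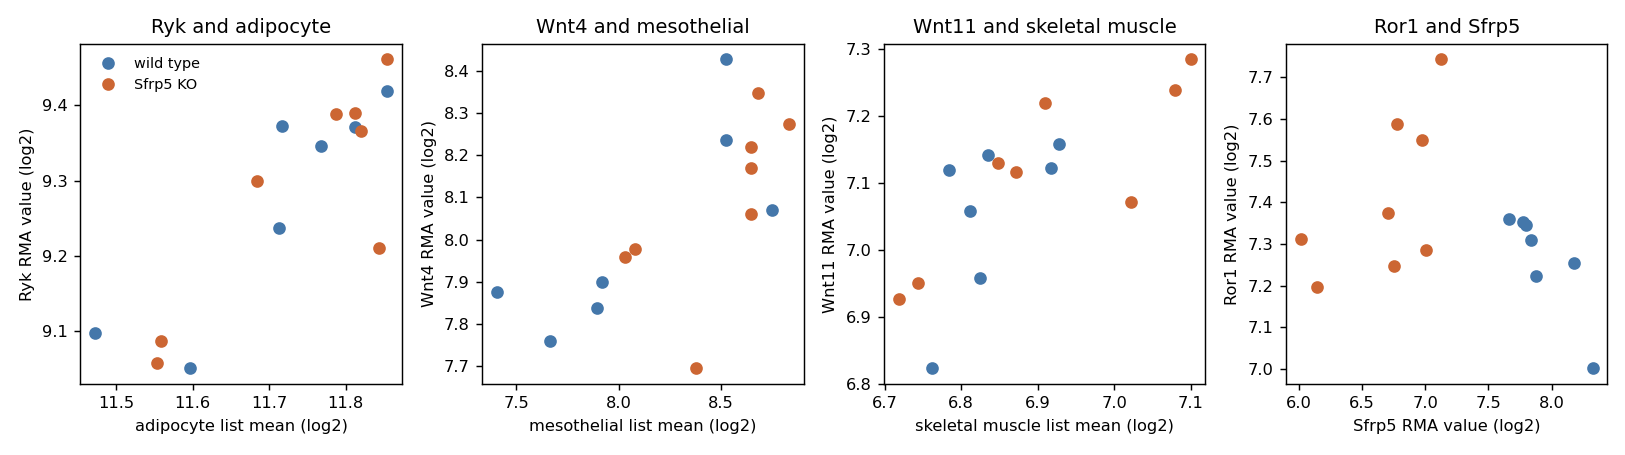
RMA values (log2) of Ryk, Wnt4, Wnt11 and Ror1, from left to right, against the mean of the adipocyte, mesothelial and skeletal muscle lists and against Sfrp5, with 1 point for each mouse (blue wild type, n = 7; orange knockout, n = 8). Ryk and the adipocyte list rise together in both genotypes. Ror1 and Sfrp5 had r = -0.87 in wild type and 0.61 in the knockout, neither past the threshold after adjustment, and the difference between the genotypes was not tested.

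The named genes most like each of the 7 across the 15 mice, by r after removal of genotype means, were searched among 12768 genes that are not the dimmest. Since they are the highest of so many, no test applies. Wnt5a had the weakest matches, Fto, an RNA demethylase of a locus tied to body weight (r = 0.75, ρ = 0.81), the matrix protease Adamts9 (r = 0.74, ρ = 0.75) and Tbc1d22b (r = 0.71), whose r was 0.27 without the 2 farthest arrays. Wnt4 was most like Mafg, a small Maf transcription factor (r = 0.94, ρ = 0.93), C77080 (r = 0.91) and the sodium leak channel Nalcn (r = 0.90). Wnt5b was most like Mfap2, a protein of elastic microfibrils (r = 0.86, ρ = 0.91), Slc22a12 (r = 0.85) and Crybb1 (r = 0.85), and Wnt11 like the olfactory receptor Olfr658 (r = 0.92, ρ = 0.96), Zfp341 (r = 0.87) and Neurod2 (r = 0.86). Ror1 was most like Il9r (r = 0.90, ρ = 0.95), Zswim9 (r = 0.88) and Mrgprf (r = 0.87), and Ror2 like Fads6 (r = 0.94, ρ = 0.91), Ly6d (r = 0.90) and Tgif2 (r = 0.90). Ryk was most like Polr3c, a subunit of RNA polymerase III (r = 0.93, ρ = 0.86), Hacd1, an enzyme of fatty acid elongation (r = 0.93), and Cops6, a subunit of the COP9 signalosome (r = 0.93). Several of the genes like Wnt11, Ror1 and Ror2 are known from other tissues, and whether their probe sets rose above background could not be assessed from these values.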

How the data were processed

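The authors deposited log2 values for 35557 probe sets on 15 arrays, summarised by RMA per the submitters' processing notes. Those notes list the tools affy 1.18, limma and Expression Console 1.1.2800.19935, with no role for each. RMA aligns the arrays' distributions, so a shift shared by most genes would be removed. The deposited values still differed somewhat between arrays, in median (6.99 to 7.07) and in interquartile range (2.47 to 2.67). Detection above background could not be assessed, as scanner files were not used here.

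The platform annotation gave 21789 probe sets a single symbol, and 21698 of these matched RefSeq (GRCm38.p6), the source of the promoters too. Genotypes were compared over all probe sets with limma 3.58.1 under R 4.3.3, without filter or covariate. Correlations used 100000 permutations within genotype, or every permutation where 1 genotype was used. All tests were two-sided, and the fit and correlations were tested on simulated data.

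The 7 genes and the lists were chosen with earlier results of these data known. The text names the 7 genes, Sfrp5, the 3 pathway genes of lowest p in each role, 9 pathway genes whatever their p, and the 3 genes most like each of the 7. Alternatives were other normalizations, variance models and thresholds, a filter below the 33rd percentile, the mean of probe sets, arrays left out, pooled correlations, a replicate block and, chosen after seeing the data, the array's interquartile range.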

Additional observations from a re-analysis of the deposited data

Results flagged for a closer look

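In each genotype, the most extreme array was compared with the others of its group by Dixon's test for the levels of the 7 genes and Sfrp5 and for the means of the 12 marker lists. Of 40 such sets of values 8 held an array past the 95% critical value, where chance gives about 1 in 20. Of the 7 genes only Ror1 held one, wild-type replicate 2 at 7.001, below the 7.223 to 7.36 of its group. The same mouse had a macrophage list mean of 8.925, above the 8.244 to 8.47 of the other wild-type mice, and knockout replicate 8 had one of 9.421, above the 8.066 to 8.7 of its group. Wild-type replicate 4 stood apart in 3 lists, with an epididymis and testis mean of 7.277 against at most 6.31, an endothelial mean of 8.931 against at least 9.3, and a nerve and Schwann mean of 7.275 against at most 6.897. Knockout replicate 2 had an epididymis and testis mean of 11.11 against at most 6.706 in its group. The T and natural killer mean was 6.613 in wild-type replicate 6, below the 6.765 to 6.879 of its group.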

How the results depend on the processing

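None of the 7 genes passed in 162 alternative fits (24 settings, the mean of probe sets for Wnt4 alone), with limma adjusted p no lower than 0.435. Wnt5b, Wnt11 and Ror1 kept a positive sign in all of them. Fits without dim probe sets or with an intensity trend leave each difference as it is, so those could not turn a sign. Other signs near 0 turned. Wnt4 was -0.0037 as the mean of its probe sets. Ror2 was 0.018 with array weights and 0.041 without wild-type 4 and knockout 2. Quantile normalization gave Ryk -0.0025, Rock1 -0.0023, Rhoa -0.044 and Wls -0.022, and Wls was also -0.0026 with median centring, -0.010 with array weights and -0.014 without wild-type 4 and knockout 2. Without 1 array at a time Wnt5a ranged from -0.0060 to 0.043, Ror2 from -0.045 to 0.031, Ryk from -0.025 to 0.044, Dvl1 from -0.068 to 0.028, Dvl2 from -0.024 to 0.045, Porcn from -0.029 to 0.049, Wls from -0.024 to 0.045, Fzd2 from -0.072 to 0.033 and Sfrp5 from -1.292 to -1.134. Sfrp5 without wild-type 4 and knockout 2 was -1.167 (limma's unadjusted p = 6.2e-06, adjusted p = 0.119). Of the pathway genes 4 had an unadjusted p below 0.05.

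The 12 probe sets past limma's threshold became 6 with quantile normalization, 7 with median centring, 26 without dim probe sets, 48 with an intensity trend and robust prior, 25 with array weights, 2 without knockout 7 and 8, 98 at an adjusted p below 0.10, and 0 without wild-type 4 and knockout 2, where 2963 had an unadjusted p below 0.05. They ranged from 0 to 133 without 1 array at a time. The cause was not tested.

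Past-threshold correlations numbered 0 to 3 between the 7 genes, 0 to 4 with marker lists and 0 to 1 with Sfrp5 without 1 array at a time. With marker lists there were 0 with quantile normalization, 0 without wild-type 4 and knockout 2, and 2 without removing genotype means. The r of Wnt5a with Sfrp5 in the knockout ranged from -0.28 to 0.70.

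Replicate numbers 1 to 7 occur in both genotypes. Deviations of same-numbered arrays correlated between -0.12 and 0.25, above 0.1 in 3 of 7 pairs. Of the 7 wild-type arrays 0 correlated best with their own number. These values do not show that the numbers pair the mice, and they cannot exclude it. Knockout replicate 8 has no partner, so a replicate block also takes it out of the comparison. With the replicate block 0 probe sets passed limma's threshold (3098 at an unadjusted p below 0.05). In that fit Sfrp5 was -1.276 (limma's unadjusted p = 6.9e-05, adjusted p = 0.3001) and Dvl2 -0.0059. Leaving out knockout replicate 8 with no block gave the same differences, 0 probe sets (3384 at an unadjusted p below 0.05) and an adjusted p of 0.0517 for Sfrp5 by limma.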
